A study of Mus musculus with 18 samples.

Results

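The NF-κB transcription factors are dimers built from 5 subunits, and the RNA of the genes Rela, Relb, Rel, Nfkb1 and Nfkb2 was followed from mouse embryonic stem cells (mESCs) to embryoid bodies (EBs). The 5 genes were found by their symbols among the 55487 genes of the count table, and all 5 passed the count filter of every test. Bulk RNA-seq was carried out on 18 libraries of the ES-E14TG2a line, a mouse ES cell line. mESCs were grown in serum with leukemia inhibitory factor (Serum/LIF), and EBs, which are floating aggregates of differentiating cells, were collected 48 hr and 96 hr after LIF was removed. Each stage held 3 IκBα-WT (IkappBalpha+/+) and 3 IκBα-KO (IkappBalpha-/-) libraries, each from a clone that the study calls independent. KO clones were made with Cas9 and a pair of guide RNAs to exon 1 of Nfkbia, the gene of the NF-κB inhibitor IκBα, and WT clones had received non-targeting guides.

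RelA (p65), RelB and c-Rel carry a transactivation domain and switch genes on, whereas Nfkb1 and Nfkb2 encode the precursors p105 and p100, which are processed to the DNA-binding partners p50 and p52. In the canonical pathway, IκBα and its relatives hold the dimers in the cytoplasm until the IKK kinases mark them for degradation. In the non-canonical pathway, the kinase NIK leads to the processing of p100 and the release of RelB. NF-κB activity is known to be low in naïve ES cells and to rise as they differentiate. The comparisons asked whether the RNA of the subunits differs without IκBα and how it moves when pluripotency is left.

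Genotype was compared only in mESCs, because the EB libraries are named by clone codes (D4, E14, E2, E3, H7 and H9) that the labels do not tie to WT or KO. EB results therefore compare stages, with 6 libraries a stage and both genotypes in each, so that any genotype difference in EBs is part of the spread. Counts on genes per library ran from 29423089 to 31091857 in WT mESCs, from 34107070 to 40904247 in KO mESCs, from 28287582 to 33169091 at 48 hr and from 30570857 to 36340056 at 96 hr. Nfkbia itself had 34.2, 35.1 and 25.3 CPM (counts of a gene scaled to the TMM-adjusted total of its library) in the WT clones and 10.2, 9.44 and 10.1 CPM in the KO clones, a log2 fold change of -1.67 (SE 0.143, edgeR adjusted p = 0.00489). KO clone 2 stood apart from the other KO clones. Its counts differed from theirs by a chi-square per degree of freedom of 48.4 and 54.9, against 7.71 between KO clones 1 and 3 and 5.04 to 10.48 among WT clones, so genotype values are also given without it. Whether KO clones 1 and 3 share an origin was not tested, and p-values count them as independent. The cells carried the markers of their stage. Of 9 naïve markers such as Klf4, 7 were lower at 48 hr than in mESCs, all 5 markers of the primed epiblast such as Fgf5 were higher, and all 6 primitive streak markers such as T were higher at 96 hr than at 48 hr. The 96 hr EBs were far from uniform, with a summed level of the streak markers between 18.6 and 1033 CPM.

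The genes lie at separate places in the genome (GRCm38). Rela (ENSMUSG00000024927) spans 5637483 to 5648130 of chromosome 19 on the plus strand, and Nfkb2 (ENSMUSG00000025225) spans 46304320 to 46312385 of the same strand and chromosome. On minus strands lie Relb (ENSMUSG00000002983) on chromosome 7 from 19606217 to 19629438, Rel (ENSMUSG00000020275) on chromosome 11 from 23736847 to 23770970, and Nfkb1 (ENSMUSG00000028163) on chromosome 3 from 135584655 to 135691547. Only the exons of Nfkb2 overlap those of other annotated genes, namely Psd and AC114539.1 on the opposite strand, over 830 bases or 18.1% of its exon length. Since no strand setting is stated for the counting, reads in that stretch cannot be given to one gene with certainty.

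NF-κB subunits are themselves known targets of NF-κB, so the promoters were searched for the κB consensus, the 10-base motif the dimers bind, on both strands. The RefSeq table (GRCm38.p6) holds 5 windows from 250 bases before to 50 after a start for 3 of the genes, 1 of Rela, 1 of Rel and 3 of Nfkb2. The motif was found in the windows of Rel and Nfkb2 and not in that of Rela, and 8.46% of all 32851 windows hold it. The sites are shown because Nfkb2 and Rel are among the subunits that changed between the EB stages. Capitals mark the 10 bases of the match.
Rel, minus strand, chr11:23771042-23771071, 92 bases before the start: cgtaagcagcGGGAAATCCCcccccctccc
Nfkb2, plus strand, chr19:46304688-46304717, 39 bases before the first start: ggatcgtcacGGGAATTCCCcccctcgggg
Nfkb2, plus strand, chr19:46304716-46304745, 11 bases before the first start: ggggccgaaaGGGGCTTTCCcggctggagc
Nfkb2, plus strand, chr19:46305695-46305724, 225 bases before the third start: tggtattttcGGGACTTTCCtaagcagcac
The Rel site lies upstream of the annotated Rel transcripts, whereas all 3 Nfkb2 sites lie in an untranslated stretch of annotated Nfkb2 exons, and the first pair also in an exon of AC114539.1. The Rel site and the first Nfkb2 site are each overlapped by a further match shifted by 1 base on the opposite strand, and Nfkb2 has another match on the opposite strand, 236 bases before its second start. These are matches of letters only, and no binding was measured here.

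**Figure D1:**
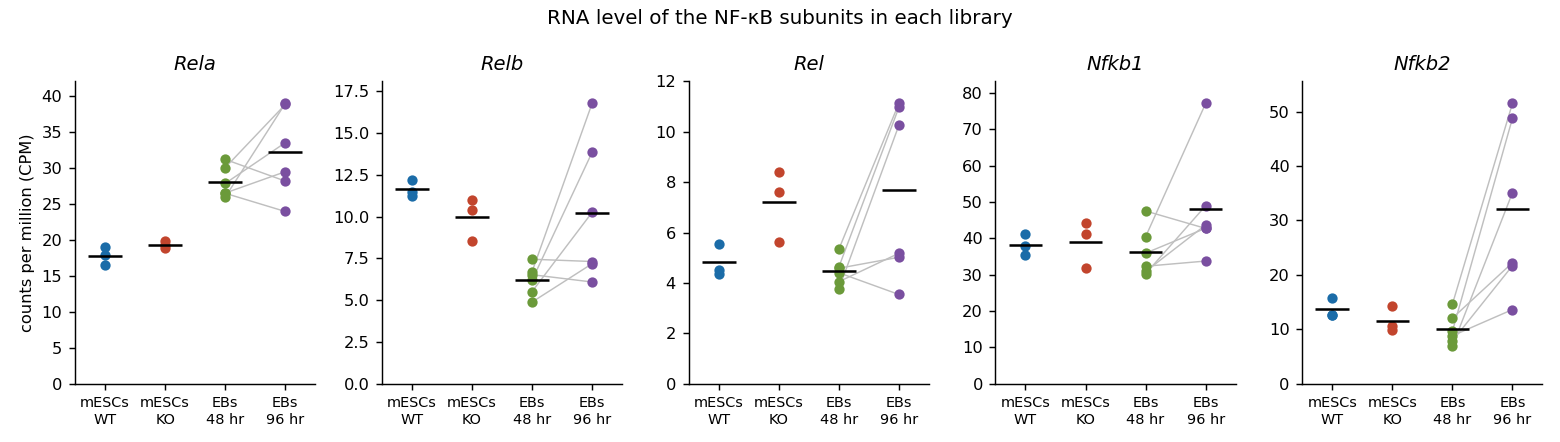
RNA level of the 5 subunits in CPM (vertical axes from 0, a scale for each gene) in 3 WT mESC, 3 KO mESC, 6 EB 48 hr and 6 EB 96 hr libraries. Points are libraries, black bars are means and grey lines join EB libraries of 1 clone code. Rela lies higher in every EB library than in any mESC library, and the 96 hr libraries of Nfkb2 spread from 13.6 to 51.5 CPM.

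Compared per length, Rel was the least abundant subunit at every stage. Levels were divided by the length of all exons of a gene merged, which gives FPKM. In the 6 mESC libraries the median was 6.17 FPKM for Rela, 3.28 for Nfkb1, 2.86 for Relb, 2.76 for Nfkb2 and 0.748 for Rel. The ranges of Nfkb1, Relb and Nfkb2 overlapped, so that only Rela at the top and Rel at the bottom stood apart. The place of Nfkb1 depended on the length used. Its merged exons cover 12061 bases against 4117 in its principal transcript, and with the length of the principal transcript its median in mESCs was 9.61 FPKM against 6.98 for Rela, without overlap between the libraries. The length of Rel was the same in both ways (7466 bases), and it stayed last in all 3 stages with either length.

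As a share of the summed level of the 5 subunits per length, Rela had a median of 37.6% (36.3% to 42.5%) in mESCs, of 55.3% (52.5% to 60.2%) at 48 hr and of 43.6% (35.8% to 49.98%) at 96 hr. Relb had the opposite order, with 18.8% (14.4% to 19.9%) in mESCs and 9.70% (8.27% to 11.2%) at 48 hr. It was at 10.04% (9.06% to 13.0%) at 96 hr. Nfkb2 was at 17.7% in mESCs, 13.0% at 48 hr and 26.6% (19.0% to 32.1%) at 96 hr, where it was the second most abundant subunit with merged exons. With principal transcripts, the same shares were 25.5%, 40.6% and 31.7% for Rela and 15.4%, 12.1% and 25.0% for Nfkb2, so the direction between stages held for both. The ratio of Relb to Rela counts, in which length cancels between stages, ran from 0.428 to 0.691 in mESCs, from 0.184 to 0.258 at 48 hr and from 0.243 to 0.430 at 96 hr. The ratio of Nfkb2 to Rela counts had medians of 0.703, 0.351 and 0.917 in the same order. The summed level itself was alike in mESCs and at 48 hr, with medians of 15.5 FPKM in both, and its median was 23.3 FPKM (15.6 to 35.3) at 96 hr. These shares are descriptions and were not tested.

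**Figure D2:**
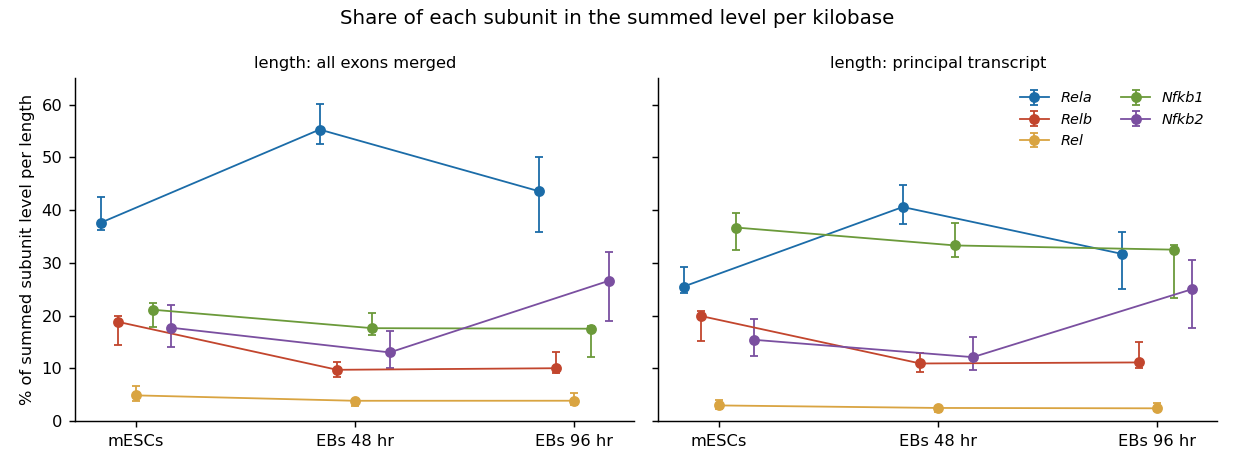
Share of each subunit in the summed level per length (vertical axis, percent) in mESCs and in EBs at 48 hr and at 96 hr, 6 libraries each. Points are medians and bars run from the lowest to the highest library. The left panel uses merged exons and the right panel principal transcripts, and Nfkb1 changes place between the panels while Rela peaks at 48 hr and Nfkb2 at 96 hr in both.

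Between IκBα-KO and IκBα-WT mESCs, 0 of the 5 subunits passed the edgeR test at an adjusted p under 0.05. Of all 21843 genes, 4.79% did (3.09% as higher and 1.69% as lower). The DESeq2 Wald test, which called 2146 genes, called 0 of the 5 as well. Rel, the gene of c-Rel, had 5.56, 4.53 and 4.36 CPM in WT clones 1 to 3 and 8.39, 5.62 and 7.60 CPM in KO clones 1 to 3. The genotypes did not overlap, although KO clone 2 was just above the highest WT clone. The log2 fold change was 0.58 (SE 0.199) with an adjusted p = 0.14 in the edgeR test (unadjusted 0.0185). The exact permutation test gave p = 0.1, the smallest that 3 clones against 3 allow. Without KO clone 2 the log2 fold change was 0.74 with an edgeR adjusted p of 0.00582. That fit called 3736 genes, against 1046 with all clones. Over all 13 alternatives the adjusted p of Rel ran up to 0.393.

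Relb was the other subunit whose clones did not overlap, in the opposite direction. This makes 2 of 5, where 28.9% of all genes tested did not overlap between the genotypes. It had 12.2, 11.5 and 11.2 CPM in the WT clones and 10.4, 10.99 and 8.53 CPM in the KO clones, which places KO clone 2 just below the lowest WT clone. The log2 fold change was -0.22 (SE 0.131, edgeR adjusted p = 0.37; exact permutation p = 0.1). Rela, the gene of p65, had 19.0, 16.6 and 17.9 CPM in WT and 19.3, 18.9 and 19.9 CPM in KO clones, with KO clone 2 below the highest WT clone and a log2 fold change of 0.12 (SE 0.0997, edgeR adjusted p = 0.534). The precursor genes had wider KO groups. Nfkb1 had 41.3, 37.9 and 35.6 CPM in WT and 44.2, 31.8 and 41.3 CPM in KO clones, so that KO clone 2 was the lowest of all 6 libraries. Its log2 fold change of 0.03 (SE 0.136, edgeR adjusted p = 0.92) turned negative when WT clone 3 or either KO clone 1 or 3 was left out. Nfkb2 had 12.7, 12.6 and 15.8 CPM in WT and 14.3, 10.7 and 9.84 CPM in KO clones, with KO clone 1 inside the WT range. Its log2 fold change was -0.24 (SE 0.17, edgeR adjusted p = 0.455). The genes around the subunits moved little with the genotype in these clones. In the 10 Mb windows that hold them, the median gene lay between -0.11 and 0.06 from the WT mean in log2 CPM in each KO clone. The windows of Relb (-0.07, -0.02 and -0.10 in KO clones 1 to 3) and Nfkb1 (-0.06, -0.11 and -0.05) lay below the WT mean in every KO clone. Some markers of cell state differed. Of 9 naïve markers, 1 was called as higher and 0 as lower in the KO clones, with a median log2 fold change of 0.04. Of 5 primed epiblast markers, 3 were lower in the KO clones, with a summed level of 382.7 to 454.3 CPM against 624.8 to 983.4 CPM in WT clones, and 5 endoderm markers, 0 of which were called, summed to between 3.43 and 29.6 CPM in KO clones against 3.15 to 4.17 CPM. Their part in the values of the subunits was not tested.

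Other genes of the pathway in mESCs were read from lists of its parts. Of 7 IκB proteins, Nfkbia was lower and Bcl3, a nuclear IκB protein that binds p50 and p52, was higher with a log2 fold change of 0.42 (edgeR adjusted p = 0.0436). Of 16 kinases and adaptors, 2 were higher and 1 lower. The TAK1-binding protein gene Tab1 had a log2 fold change of 0.71 (edgeR adjusted p = 0.0358), Prkaca, a catalytic subunit of protein kinase A, of 0.65 (0.00591), and Traf3, which restrains NIK, of -0.62 (0.0308). For some of these genes the genome around them moved too. The 10 Mb window of Traf3 on chromosome 12 had a median of -0.94, -0.34 and -1 in KO clones 1 to 3 against the mean of the WT clones, and Traf3 itself was at -0.74, -0.38 and -0.76. That of Prkaca on chromosome 8 was at 0.56, 0.33 and 0.54, with Prkaca at 0.62, 0.65 and 0.69. The window of Tab1 on chromosome 15 was at 0.02, 0.63 and -0.05, with Tab1 at 0.64, 1 and 0.44. The window of Bcl3 stayed between -0.10 and -0.02. Of 13 receptors and ligands tested, the TNF receptor gene Tnfrsf1a was higher with a log2 fold change of 0.75 (edgeR adjusted p = 0.033) in a window at 0.01 to 0.11, and of 15 known target genes tested, 0 were called. The median log2 fold change was -0.12 over the target genes and 0.01 over all genes tested.

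**Figure D3:**
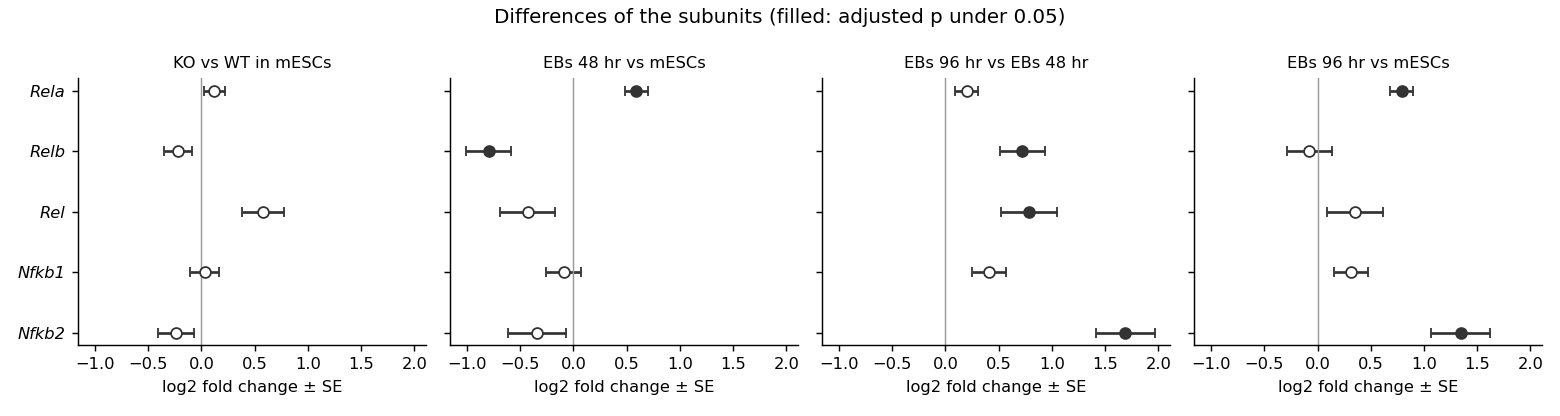
Log2 fold change of each subunit with its standard error (horizontal axis) in the 4 comparisons, from edgeR's quasi-likelihood test. Filled points passed an adjusted p under 0.05, which holds for none of the 5 in the genotype comparison, for Rela and Relb at 48 hr, for Relb, Rel and Nfkb2 between the EB stages and for Rela and Nfkb2 between 96 hr and mESCs.

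From mESCs to 48 hr EBs, Rela rose and Relb fell, while Rel, Nfkb1 and Nfkb2 did not pass the test. This makes 2 of 5 subunits called, where 27.9% of 25318 genes were called (14.9% as higher and 13% as lower). By a stricter rule that also asks for a log2 fold change beyond 1, here in edgeR values without the shrinkage that the study applied to DESeq2 values, 0 of 5 subunits passed against 9.57% of genes. Rela had a lowest, median and highest level of 16.6, 18.9 and 19.9 CPM in mESCs and of 25.98, 27.2 and 31.2 CPM at 48 hr. The stages did not overlap, as for 16.7% of all genes tested, and the level was 1.51-fold higher (log2 fold change 0.59, SE 0.107, edgeR adjusted p = 0.000368). The exact permutation test gave p = 0.00216, the smallest that 6 libraries against 6 allow. The 178 genes in the 10 Mb window of Rela had a median difference of 0.271 in log2 CPM, against 0.0145 over all genes. The part of this window in the value of Rela was not tested. Relb had 8.53, 11.1 and 12.2 CPM in mESCs and 4.89, 6.36 and 7.45 CPM at 48 hr, again without overlap. Its level was 1.74-fold lower (log2 fold change -0.80, SE 0.212, edgeR adjusted p = 0.00818, exact permutation p = 0.00216).

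The other subunits overlapped between mESCs and 48 hr EBs. Rel had 4.36, 5.59 and 8.39 CPM in mESCs and 3.76, 4.49 and 5.33 CPM at 48 hr, a log2 fold change of -0.43 (edgeR adjusted p = 0.243). The 3 highest of the mESC values were those of the KO clones. Nfkb1 had 31.8, 39.6 and 44.2 CPM in mESCs and 30.3, 34.2 and 47.6 CPM at 48 hr, and Nfkb2 had 9.84, 12.7 and 15.8 CPM and then 6.92, 9.21 and 14.6 CPM. Their log2 fold changes were -0.09 and -0.34 (edgeR adjusted p = 0.721 and 0.388). The call on Relb depended on the reference. With the 3 KO mESC clones alone as reference its log2 fold change was -0.70 with an edgeR adjusted p of 0.0869, whereas Rela kept an adjusted p under 0.05 in all 20 refits (3.07e-06 to 0.0159).

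Upstream and downstream genes moved in both directions at 48 hr. Of 7 IκB proteins, Bcl3 fell to 1.96 ± 1.03 CPM from 20.04 ± 3.26 CPM (SD, n = 6 libraries each, log2 fold change -3.35, edgeR adjusted p = 1.33e-06), and Nfkbib, the gene of IκBβ, rose by a log2 fold change of 0.47 (0.000125). Of 16 kinases and adaptors, 2 rose and 3 fell. Map3k14, which encodes NIK, had a log2 fold change of -0.87 (edgeR adjusted p = 0.00606), Traf2 of 0.63, Chuk, which encodes the kinase IKKα, of -0.54 and Map3k7, which encodes TAK1, of -0.34. Of 14 receptors and ligands tested, 1 rose and 1 fell. Ltb, whose product is part of the ligand of the lymphotoxin β receptor, was at 0.584 ± 0.435 CPM against 2.82 ± 0.66 CPM in mESCs (SD, n = 6 each), and the interleukin receptor gene Il1r1 had a log2 fold change of 1.14 (edgeR adjusted p = 0.0387). Of 17 target genes tested, 2 rose and 5 fell, with a median of -0.16 against 0.00 over all genes. The adhesion molecule gene Icam1 had a log2 fold change of -1.36 (edgeR adjusted p = 6.76e-05), the early response gene Ier3 of -1.46 and the prostaglandin synthase gene Ptgs2 of -1.60. Of the 2 that rose, Vcam1 was called at levels of 0.142 and 0.0448 CPM, which is a few reads per library. The other was the interferon regulatory factor gene Irf1 (named after its value was seen). It was at 59.6 ± 12.9 CPM at 48 hr against 24.98 ± 5.84 CPM in mESCs (SD, n = 6 each, log2 fold change 1.25, edgeR adjusted p = 5.72e-05).

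From 48 hr to 96 hr, Nfkb2, Rel and Relb rose, while Rela and Nfkb1 did not pass the test. This makes 3 of 5 subunits called as higher, where 13.9% of all genes tested were called as higher and 27.7% in either direction. By the stricter rule only Nfkb2 passed, against 11.9% of genes. Nfkb2, the gene of p100, showed the largest difference of the 5. Its lowest, median and highest level was 6.92, 9.21 and 14.6 CPM at 48 hr and 13.6, 28.7 and 51.5 CPM at 96 hr, so that only the lowest library at 96 hr reached into the 48 hr range. The level was 3.22-fold higher (log2 fold change 1.69, SE 0.277, edgeR adjusted p = 0.000396, exact permutation p = 0.00433). It was higher at 96 hr in 6 of 6 clone codes, by 0.63 to 2.33 in log2 CPM, and it kept an adjusted p under 0.05 in all 19 refits (6.85e-08 to 0.00381). The overlapping gene AC114539.1 rose by a log2 fold change of 1.48 (edgeR adjusted p = 0.00181) and Psd by 0.62 (0.0375), at 1.70 and 1.36 CPM on average at 96 hr. Both levels are far below those of Nfkb2, but they set no bound on the reads in the shared stretch. The part of that stretch in the rise of Nfkb2 was not tested.

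Relb had 4.89, 6.36 and 7.45 CPM at 48 hr and 6.09, 8.78 and 16.8 CPM at 96 hr, where 3 libraries exceeded 10 CPM and 3 stayed inside the 48 hr range. Its level was 1.65-fold higher (log2 fold change 0.72, SE 0.211, edgeR adjusted p = 0.0172, exact permutation p = 0.0325). Without the 96 hr library of code H9 the log2 fold change was 0.52 with an edgeR adjusted p of 0.0544. Rel had 3.76, 4.49 and 5.33 CPM at 48 hr and 3.54, 7.71 and 11.1 CPM at 96 hr, and its 96 hr libraries lay in separate ranges of 3.54 to 5.17 CPM and 10.3 to 11.1 CPM, with 3 libraries in each. The log2 fold change was 0.78 (SE 0.262, edgeR adjusted p = 0.0331, exact permutation p = 0.0823). With the clone code as a replicate block it was 0.69 with an edgeR adjusted p of 0.0527, and over 19 alternatives, 10 of which kept the call, the adjusted p ran from 0.00601 to 0.0885.

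Nfkb1 had 30.3, 34.2 and 47.6 CPM at 48 hr and 33.8, 43.3 and 77.2 CPM at 96 hr, with the library of code E14 far above the others. Its log2 fold change of 0.41 (SE 0.162) had an edgeR adjusted p of 0.0653, which became 0.048 with the clone code as a replicate block and ran from 0.0209 to 0.132 over 19 alternatives. Rela had 25.98, 27.2 and 31.2 CPM at 48 hr and 24.0, 31.5 and 39.0 CPM at 96 hr, a log2 fold change of 0.20 (SE 0.106, edgeR adjusted p = 0.17). Without the 96 hr library of code E3, which was the lowest for all 5 subunits, 5 of the 5 subunits were called, and without that of code H9 only Nfkb2 was. The count of all genes called moved the same way, from 7019 to 8589 without E3 and to 5260 without H9.

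More of the pathway genes rose than fell between the EB stages. Of 14 receptors and ligands tested, 5 rose and 0 fell, with a median log2 fold change of 0.49 against -0.03 over all genes tested. The costimulatory receptor gene Cd40 was at 4.65 ± 5.06 CPM against 0.511 ± 0.384 CPM at 48 hr (SD, n = 6 each, log2 fold change 3.18, edgeR adjusted p = 0.0018). Ltb was at 8.18 ± 7.85 against 0.584 ± 0.435 CPM (3.80, adjusted p = 0.000424 in the same edgeR test), and Ltbr, the gene of the lymphotoxin β receptor, had a log2 fold change of 1.42. Tnf, the gene of the tumor necrosis factor, was called as higher at 0.566 ± 0.501 against 0.0456 ± 0.0416 CPM, a few reads per library at 48 hr. Of 17 target genes tested, 8 rose and 1 fell, with a median of 0.92. Ier3 had a log2 fold change of 2.18 (edgeR adjusted p = 4.4e-05) and Csf1, a growth factor of macrophages, of 2.79 (0.00232), and the chemokine genes Ccl2 and Cxcl1 were called as higher (edgeR adjusted p = 0.0231 and 0.0322) at only 0.072 and 0.126 CPM on average at 96 hr. Sod2, a mitochondrial superoxide dismutase, was the target gene that fell, by 0.72 on the log2 scale (named after its value was seen).

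Of 7 IκB proteins, 3 rose and 1 fell between 48 hr and 96 hr. Nfkbie, the gene of IκBε, had a log2 fold change of 1.05 (edgeR adjusted p = 0.0184), Nfkbiz of 0.70 (0.0232), Nfkbil1 of 0.64 (0.00249) and Nfkbid of -0.78 (0.000996). Of 16 kinases and adaptors, 3 rose and 2 fell. The log2 fold change was 0.67 for Tab1, 0.40 for Traf6, -0.25 for Csnk2a1 and -0.23 for Chuk. In bulk RNA, fewer cells of a type and less RNA per cell cannot be told apart. At 96 hr the summed level ran from 5.14 to 250.1 CPM over 5 endoderm markers, from 23.7 to 376.9 CPM over 4 endothelial markers, from 13.0 to 88.3 CPM over 5 fibroblast markers and from 8.64 to 41.5 CPM over 6 blood and macrophage markers, 4, 2, 1 and 1 of which were higher than at 48 hr. The endothelial markers already summed to 91.0 to 99 CPM in WT mESCs and 106.6 to 146.1 CPM in KO mESCs. Among them, Pecam1 was at 82.7 CPM on average at 48 hr and 40.0 CPM at 96 hr, and it was not called. Of the blood markers, Ptprc, which marks all white blood cells, had at most 1 read in any 96 hr library. Runx1 was the one called as higher (log2 fold change 3.07, edgeR adjusted p = 0.0251), with 11 to 980 reads per library at 96 hr. Gata1 had 13 to 378 reads there and was not called. The part of these cell types in the values of the subunits was not tested.

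**Figure D4:**
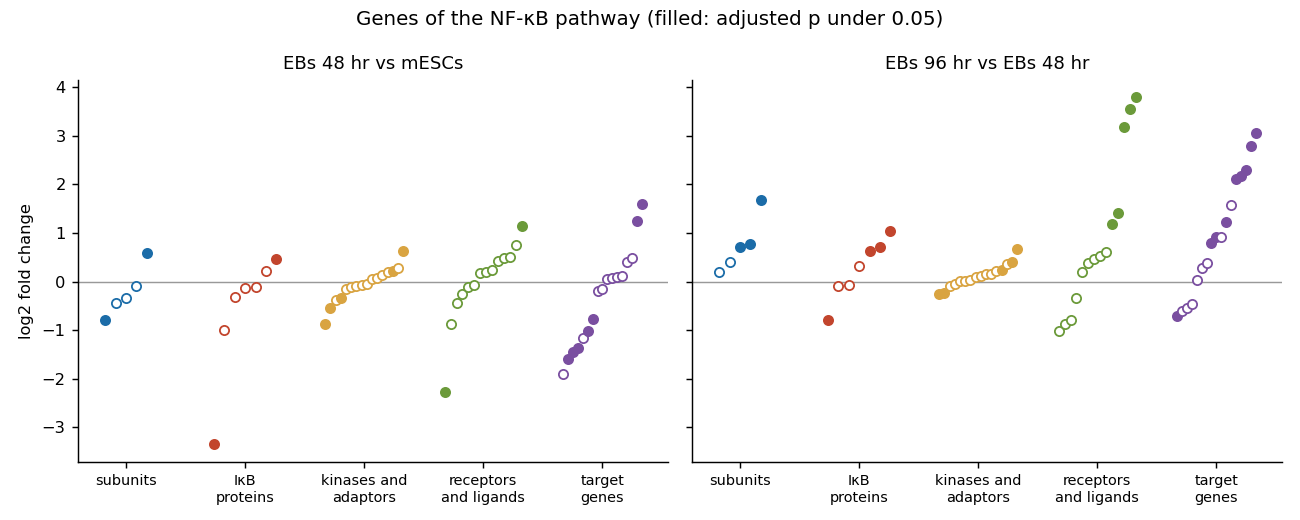
Log2 fold changes (vertical axis) of the tested genes of 5 lists, the subunits, IκB proteins, kinases and adaptors, receptors and ligands, and target genes, ordered by value within each list. The left panel compares 48 hr EBs with mESCs and the right panel 96 hr with 48 hr EBs, and filled points passed an adjusted p under 0.05. Both comparisons share the 48 hr libraries, and 8 of 17 target genes were filled above 0 in the right panel against 2 in the left.

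Over the whole interval from mESCs to 96 hr EBs, Rela and Nfkb2 were higher, and Relb, Rel and Nfkb1 did not pass the test. This is 2 of 5 subunits, where 43% of all genes tested were called (22.7% as higher and 20.3% as lower). By the stricter rule only Nfkb2 passed, against 20.8% of genes. Rela had 16.6 to 19.9 CPM in mESCs and 24.0 to 39.0 CPM at 96 hr without overlap, as for 22.9% of all genes tested, and was 1.73-fold higher (log2 fold change 0.79, SE 0.107, edgeR adjusted p = 1.24e-05, exact permutation p = 0.00216). Its 10 Mb window had a median difference of 0.216 in log2 CPM, against 0.0287 over all genes. Nfkb2 had 9.84 to 15.8 CPM and 13.6 to 51.5 CPM, 2.54-fold higher with 1 library at 96 hr inside the mESC range (log2 fold change 1.35, SE 0.274, edgeR adjusted p = 0.000683, exact permutation p = 0.00649). Both kept an adjusted p under 0.05 in all 20 refits. Relb was close to its mESC level again on average, with 8.53 to 12.2 CPM and then 6.09 to 16.8 CPM. Its log2 fold change of -0.08 (SE 0.209, edgeR adjusted p = 0.796) turned positive without the 96 hr library of code D4, E2 or E3 and with KO mESCs as the reference. For Rel and Nfkb1 the log2 fold changes were 0.35 and 0.32 (edgeR adjusted p = 0.292 and 0.122).

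Of the other lists over this interval, 8 of 17 target genes were higher and 4 lower, 7 of 14 receptors and ligands were higher and 1 lower, and 5 of 16 kinases and adaptors were higher and 3 lower. The interferon regulatory factor gene Irf1 had a log2 fold change of 2.05, Cd44 of 2.16 and Icam1 of -1.81 among the target genes, and Ccl2 was called as higher at a mean of 0.072 CPM. Ltbr had 1.93 and Cd40 2.75 among the receptors, and Tnfsf11, the gene of the RANK ligand, had -1.89. Tnf was called as higher (edgeR adjusted p = 0.000282) at 0.566 CPM on average at 96 hr against 0.026 CPM in mESCs, where it had a few reads per library at most. Tab1, Chuk, Traf2 and Ikbkb, the gene of the kinase IKKβ, had 0.81, -0.78, 0.72 and 0.49. Of 7 IκB proteins, 3 were higher and 2 lower, with Bcl3 at -3.41, Nfkbiz at 0.60, Nfkbid at -0.55 and Nfkbil1 at 0.51.

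The subunits did not share 1 pattern over the 18 libraries. The correlation of log2 CPM, a description over libraries that share stages and clones, was highest between Nfkb1 and Nfkb2 (Pearson r = 0.78), followed by Rel with Nfkb2 (r = 0.746) and Rel with Nfkb1 (r = 0.703). It was r = -0.061 between Rela and Relb. Among 13177 genes, those most like Rela were Myh9, Ptov1 and Nrbp1 (r = 0.971 to 0.963), and those most like Nfkb2 were Pdlim4, Kansl1l and Tcaf1 (r = 0.963 to 0.952). For Relb they were Mturn, Cept1 and Sept10 (r = 0.939 to 0.934), for Rel they included Oaf and Syde1 (r = 0.92 and 0.898), and for Nfkb1 Actn1 and Lrig2 (r = 0.9 and 0.892).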

How the data were processed

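RNA-seq of mESCs (3 WT, 3 KO), EBs at 48 hr (6 libraries) and EBs at 96 hr (6 libraries) was analysed. By the submitters' processing notes and the study's methods, the authors trimmed reads with Trim Galore 0.6.6, aligned them to GRCm38 with STAR 2.7.8, and assigned reads that mapped to 1 place to exons with featureCounts (Subread 2.0.1). The deposited counts are whole numbers without normalization. A deposited table of normalized values was not used. The strand setting is not given in the sources used here. Totals per library, given with the results, set the counting error, while the spread between clones limits genes with many counts.

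Symbols, positions and exon lengths came from GENCODE vM21, with a symbol for 55227 of 55487 genes. Genes reaching 10 counts in sum over a fit's libraries were tested with edgeR 4.0.16 in R 4.3.3 (TMM scaling, robust quasi-likelihood test, Benjamini-Hochberg adjustment over all genes), genotype in the 6 mESC libraries and stage in all 18 libraries. SE was derived from the fold change and the F statistic. Exact permutation tests, two-sided, used log2 CPM with a prior count of 2. The named genes are the subunits, Nfkbia, up to 4 called members of each list with the largest log2 fold change, and for likeness the 3 genes with the highest r, some of which are not reported here. Marker genes and overlapping genes are named beside them. Members and lists were chosen with earlier results of these data known. No label pairs EB codes with a genotype, so genotype was not compared in EBs. In mESCs, p-values measure the spread between clones. In the stage tests, including the exact permutation tests, all libraries count as independent although both genotypes are present and clone codes recur. Their spread therefore mixes clone, genotype and repeated sampling. Codes D4 and E2 differed by a chi-square per degree of freedom of only 5.52 at 48 hr and 6.57 at 96 hr, and H7 and H9 by 6.83 and 13.06. Whether codes share an origin was not tested.

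Alternatives were DESeq2 1.42.0 size factors and its Wald test, other filters and dispersion settings, a log2 fold change beyond 1 (the study's cut, here on unshrunken values), each library left out, replicate blocks, other mESC references, fits of the compared stages only, and an offset for each 10 Mb window. Lengths of principal transcripts were chosen after seeing the data. Shared replicate numbers did not pair mESC clones (correlations of deviations -0.117, -0.00783 and -0.0284). For EB clone codes, the correlations between the stages ran from 0.397 to 0.734, although E14 at 48 hr correlated more with another code (0.751) than with its own (0.478). EB deviations were taken from the mean of both genotypes, whereas mESC deviations were taken within genotype. A lasting genotype difference would also raise the EB values, so they cannot show that the codes pair clones. No libraries were duplicates. The fits were tested on simulated counts.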

Additional observations from a re-analysis of the deposited data

How the results depend on the processing

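Of 360 refits of the log2 fold changes of the subunits, 334 kept their direction and their side of the threshold. Rela (both stages against mESCs) and Nfkb2 (96 hr against both other stages) kept an adjusted p under 0.05 in every one of these refits. In mESCs, the count of all genes called was 1046, and it was 2146 with DESeq2, 631 with the replicate number as a block, 372 with a log2 fold change beyond 1 as well (unshrunken edgeR values) and between 0 (without WT clone 2) and 3736 (without KO clone 2) with 1 clone left out. The count of subunits called was 0 to 1, and Rel ran from 0.45 to 0.74 and Nfkb1 from -0.072 to 0.17, with -0.024 without WT clone 3 and -0.015 without KO clone 3.

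Under that fold change rule, 2422 genes and 0 subunits were called at 48 hr against mESCs, 3003 genes and 1 subunit between the EB stages, and 5278 genes and 1 subunit at 96 hr against mESCs. With KO mESCs as reference, 1 subunit was called at 48 hr, namely Rela (0.52), and 5021 genes were called against 7053 in the main fit. Relb was at -0.70 and not called at 48 hr with that reference, and it was at 0.056 at 96 hr. Between the EB stages, with 1 library left out, 1 to 5 subunits were called among 5260 to 8589 genes called. In these fits Rela ran from 0.14 to 0.27, Relb from 0.52 to 0.83, Rel from 0.65 to 0.93 and Nfkb1 from 0.26 to 0.53. Rel was at 0.81 (edgeR adjusted p = 0.0526) with those stages alone and at 0.69 with the clone code as a replicate block. Nfkb1 was at 0.45 (edgeR adjusted p = 0.0414) with filterByExpr, at 0.42 (adjusted p = 0.0472) with DESeq2 and at 0.41 with the same block. The block ended or gave no other call. At 96 hr against mESCs, Relb ran from -0.27 to 0.036 with 1 library left out, with 0.0035 without D4 and 0.0072 without E2 at 96 hr, and Nfkb1 from 0.15 to 0.40. The cause of these shifts was not tested.

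Principal transcript lengths moved 10 of 15 median levels per length by more than 1 SD. Rel, the lowest subunit, had 119 to 424 reads per library, so counting error weighs most on its values.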

Other observations

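In the 96 hr EBs, the libraries of codes E14, H7 and H9 had the 3 highest levels of all 5 subunits, and that of code E3 the lowest. The share of all genes with this order was not counted, so it is not known whether the order is particular to the subunits. The libraries also differed widely over all genes, with a chi-square per degree of freedom of 158.9 between E14 and E3 against 6.57 between D4 and E2. Nfkb2 was at 51.5 CPM in E14, 48.8 in H9, 35.1 in H7, 22.2 in D4, 21.7 in E2 and 13.6 in E3. Relb was at 16.8 CPM in H9, 13.8 in E14, 10.3 in H7, 7.31 in D4, 7.18 in E2 and 6.09 in E3. Rel was at 11.1 CPM in E14, 10.96 in H9, 10.3 in H7, 5.17 in D4, 5.02 in E2 and 3.54 in E3.

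Rela was at 39.0 CPM in H9, 38.9 in E14, 33.6 in H7, 29.5 in E2, 28.2 in D4 and 24.0 in E3. Nfkb1 was at 77.2 CPM in E14, 49.0 in H9, 43.7 in H7, 42.8 in E2, 42.8 in D4 and 33.8 in E3, so that the codes in the middle were nearly level. Nfkbia, the targeted gene, was at 23.0 CPM in H9, 19.9 in E14, 14.5 in H7, 8.53 in E3, 7.01 in E2 and 4.97 in D4.

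At 48 hr the order of the codes differed between the subunits. Code D4 had the highest level of Rela (31.2 CPM), Relb (7.45 CPM) and Nfkb1 (47.6 CPM), and code E14 that of Rel (5.33 CPM) and Nfkb2 (14.6 CPM). From 48 hr to 96 hr, Nfkb2 was higher in 6 of 6 codes, Rel and Nfkb1 in 5, Rela and Relb in 4 and Nfkbia in 2. The labels do not say which codes are WT or KO, so these values are given for each library without a comparison.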
